A study of Homo sapiens with 6 samples.

Results

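Ribosomal protein genes were compared between U-2 OS cells expressing S22A-progerin and U-2 OS cells expressing wt-progerin. A gene was taken where its annotated symbol is RPL, RPS, MRPL or MRPS followed by a number, or is RPLP0, RPLP1, RPLP2 or RPSA, and where RefSeq lists it as protein-coding. Kinases and binding proteins whose symbols start with the same letters were not taken, nor were read-through genes. By that rule 126 genes were measured of 14884 named genes in all, of which 53 encode cytosolic and 73 mitochondrial ribosomal proteins. The other 34 cytosolic and 4 mitochondrial genes that fit the rule in RefSeq, among them RPL5, RPLP0, RPSA and MRPL12, had no named probe set and were not analysed here.

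U-2 OS is a human osteosarcoma cell line. All cells carried a retroviral vector for progerin, the truncated and permanently farnesylated lamin A of Hutchinson-Gilford progeria, were selected in puromycin (5 µg/ml, 3 days), and were harvested 4 days after infection. In 3 cultures the vector encoded wt-progerin, and in the other 3 it encoded S22A-progerin, in which a serine that is phosphorylated when the lamina is taken apart is alanine. The comparison asks how gene expression differs when that serine cannot be phosphorylated. The labels call the cultures independent replicas. Both groups carry progerin, and uninfected or empty-vector cells were not analysed here. The labels do not name the promoter that drives the transgene, nor whether each infection was 1 pool of cells.

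Cytosolic ribosomes are built in the nucleolus from a small subunit (RPS proteins) and a large subunit (RPL proteins). Their mRNAs are among the most abundant of a growing cell and most belong to the TOP class, whose transcription starts at a cytosine within a run of pyrimidines and whose translation is controlled by mTORC1. Mitochondrial ribosomes are a separate machine that makes the few proteins encoded by mitochondrial DNA, and all of their proteins (MRPS and MRPL) come from nuclear genes. A cytosolic paralog of RPS27, RPS27L, is known as a p53-induced gene.

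The promoter sequences below show what sets the start sites of the cytosolic genes apart, and are given for the 6 cytosolic genes that passed the test and for RPS27 beside its paralog. They are RefSeq sequences of build GRCh38.p14, 50 bases each, with 30 bases before the annotated start and 20 from it onward. Capitals mark the unbroken run of C and T that holds the first transcribed base, where it is 5 bases or longer. Where RefSeq lists several starts, the start with the longest run is shown.
RPS27L: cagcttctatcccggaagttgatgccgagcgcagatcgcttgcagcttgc
RPS27: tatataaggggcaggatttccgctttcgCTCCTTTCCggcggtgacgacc
RPS19: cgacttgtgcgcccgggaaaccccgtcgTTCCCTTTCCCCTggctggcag
RPL19: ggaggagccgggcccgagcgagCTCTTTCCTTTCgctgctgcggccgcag
RPL29: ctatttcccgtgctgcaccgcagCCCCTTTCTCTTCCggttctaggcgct
RPL36: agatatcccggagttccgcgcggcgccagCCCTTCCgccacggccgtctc
RPL10A: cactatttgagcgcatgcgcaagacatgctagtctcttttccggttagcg
These windows lie at chr15:63157458-63157507 (minus strand, RPS27L), chr1:153990732-153990781 (plus, RPS27), chr19:41860225-41860274 (plus, RPS19), chr17:39200293-39200342 (plus, RPL19), chr3:51995876-51995925 (minus, RPL29), chr19:5690265-5690314 (plus, RPL36) and chr6:35468371-35468420 (plus, RPL10A). RPS27 has a run of 9 pyrimidines at its start and RPS27L has none there. RPL10A has no run that holds its annotated first base, though one follows within the window.

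A start-site run of at least 5 pyrimidines was present in 52 of 70 cytosolic genes in the RefSeq promoter table (74.3%). It was present in 7 of 69 mitochondrial genes (10.1%) and in 1713 of all 15843 protein-coding genes (10.8%). Of the 53 measured cytosolic genes, 48 had a promoter in that table. Those with the run had a median difference of 0.06 (n = 34 genes) and those without it 0.05 (n = 14), both on the log2 scale, and 4 and 2 of them rose. Of all 14884 genes tested on the arrays, 10.8% rose and 14.6% fell. Of 65 measured mitochondrial genes in the table, 7 had the run, with a median of 0.11, and 58 did not, with a median of -0.04. Of the 7, MRPL45, MRPL53 and MRPS2 rose, calls that were lost in most or all fits with an array left out. Of the 58, 7 rose and 1 fell.

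The values are log2 expression per probe set, 1 probe set per gene, and every difference is S22A-progerin minus wt-progerin. A gene is said to rise or fall where limma's adjusted p, over all 14884 genes, was under 0.05. Array medians over all probe sets lay between 6.04 and 6.09. Wt-progerin and S22A-progerin arrays lay apart on the first principal component (69.1% of the variance). S22A-progerin replicate 3 stood apart from its group on the second component, at -15.5 against 6.51 and 9.29. Of the 18 ribosomal protein genes called, MRPL28, MRPL53, MRPS12 and MRPS2 did not pass without it. These genes were also lost in most or all fits without another array. LMNA, the source of lamin A and of progerin, was at 8.14 ± 0.036 in wt-progerin and 8.29 ± 0.024 in S22A-progerin (SD, n = 3, limma adjusted p = 0.0796). Its probe set does not check the S22A change, and whether it reads the vector transcript is not known here. Arrays measure each mRNA as a share of the RNA applied, so a ribosomal protein mRNA that fell with all other mRNA would not show here. Each p-value rests on the variation among these cultures.

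Of markers for the cell type, VIM, a mesenchymal intermediate filament, was bright in both groups (means 10.89 and 10.83). Of that mesenchymal list 2 of 8 genes were named on the array, and the other, TWIST1, was dim (means 4.93 and 4.97). Over all genes tested 10.8% rose and 14.6% fell, to be read beside the counts in these lists. Of 4 measured osteoblast genes 1 rose and 1 fell. The secreted matrix protein gene SPP1 rose from a mean of 7.18 to 8.36, and the regulator RUNX2 fell from 8.77 to 8.03. SP7 (means 6.25 and 6.24) and the late gene IBSP (3.86 and 3.88) did not pass. In the epithelial list 1 of 7 measured genes rose, KRT18 (0.51), which was bright in both groups (means 11.42 and 11.94). EPCAM read 7.15 and 6.87. Of the leukocyte list 1 of 4 measured genes rose, CD68 (1.48), also a gene of lysosomes. CD14, LYZ and TYROBP did not pass, and PTPRC was not analysed here. The part of these genes in the results below was not tested.

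Cytosolic ribosomal protein genes moved little, and those that passed were all higher in S22A-progerin. Of 53 measured, 6 rose (11.3%) and 0 fell, where 10.8% of all genes tested rose and 14.6% fell. At an unadjusted limma p under 0.05, 10 cytosolic genes were higher (18.9%) and 1 lower (1.89%), against 16.0% and 20.7% of all genes. By either threshold the share higher was close to that of all genes, while the share lower was below it. Among the top tertile of all genes by mean level, which holds 41 of the 53, 14.2% rose and 25.6% fell. Of those 41, 6 rose and 0 fell. The difference was above 0 in 44 of the 53 genes (83.0%) against 49.2% of all genes, with a median of 0.06 against -0.00367. With each array centred on its median, 40 of 53 differences were above 0 and the median was 0.03. All genes shifted as well, to 41.7% above 0 and a median of -0.0376. These shares describe the list, and no test was made of them.

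**Figure D1:**
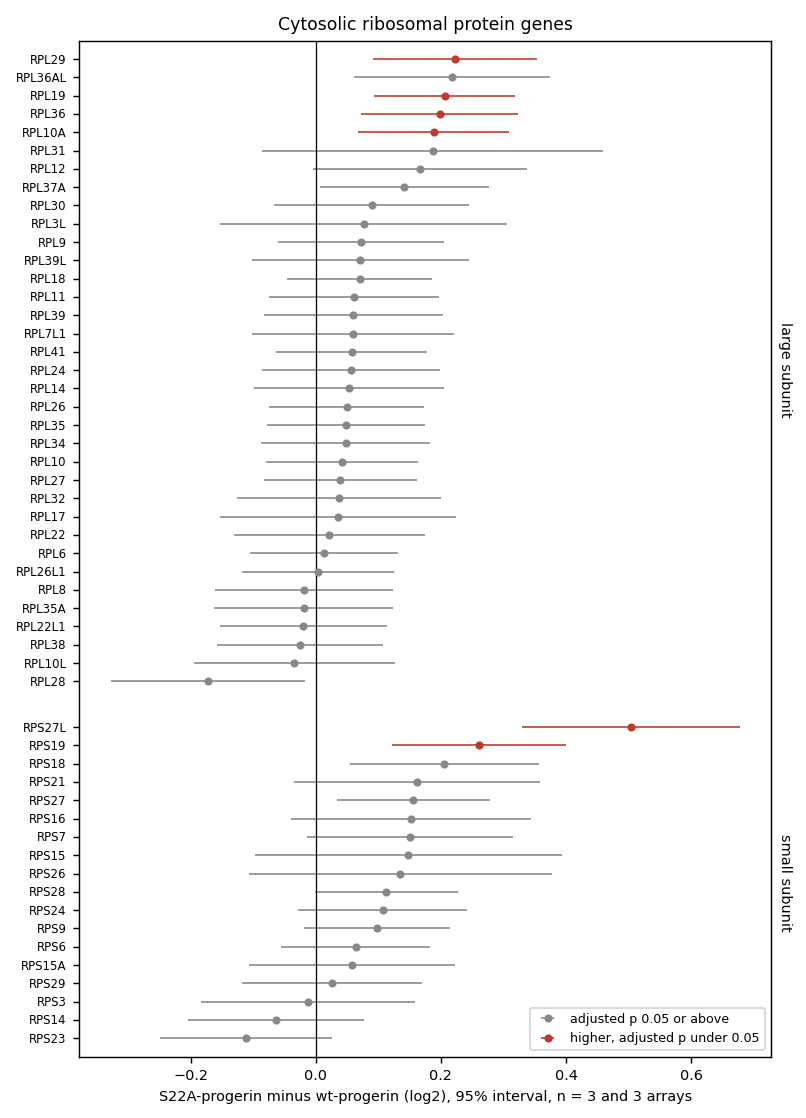
Difference between S22A-progerin and wt-progerin (log2, x axis) for each of the 53 measured cytosolic ribosomal protein genes (rows), with 95% intervals from limma and n = 3 arrays per group. Points in red passed at an adjusted p under 0.05: RPS27L lies farthest right at 0.50, the other 5 lie between 0.19 and 0.26, and no gene passed on the left.

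RPS27L, the paralog of RPS27, had the largest difference of the cytosolic set. It read 8.21, 8.28 and 8.20 in wt-progerin and 8.87, 8.65 and 8.68 in S22A-progerin. All 3 S22A-progerin arrays lay above all 3 wt-progerin arrays, and replicate 1 was the highest. The rise was 0.50 (SE 0.0736, 95% interval 0.33 to 0.68), or 1.42-fold, at limma adjusted p = 0.00282. It passed in each of the 17 alternative fits, where its adjusted p was at most 0.0151.

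RPS27 itself, a small-subunit protein, read 12.08, 12.06 and 12.14 in wt-progerin and 12.22, 12.28 and 12.25 in S22A-progerin. Its values did not overlap either, but the difference of 0.16 (SE 0.0517) did not pass (limma adjusted p = 0.068). The RPS27L minus RPS27 difference within an array was larger in S22A-progerin by 0.35, in an exact two-sided permutation test over the 6 arrays at p = 0.1, the smallest that 3 against 3 arrays allow.

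In the small subunit RPS19, the gene most often mutated in Diamond-Blackfan anaemia, was the other member that rose. It read 12.16, 12.18 and 12.22 in wt-progerin and 12.39, 12.42 and 12.54 in S22A-progerin. All S22A-progerin arrays were above all wt-progerin arrays, by 0.26 on average (SE 0.0589), at limma adjusted p = 0.0172. Without wt-progerin replicate 1 or replicate 2 it did not pass, and its adjusted p was at most 0.0646. RPS18 (0.21) was at limma adjusted p = 0.0559, and its other probe set, at 0.17, was at 0.0445 when all probe sets were tested. RPS23, which lines the decoding centre, was the lowest of the small subunit at -0.11 (adjusted p = 0.219). The 18 small-subunit genes had a median of 0.12.

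In the large subunit RPL29, RPL19, RPL36 and RPL10A rose, by 0.19 to 0.22. RPL29 read 8.94, 8.91 and 8.88 in wt-progerin and 9.14, 9.19 and 9.07 in S22A-progerin, a rise of 0.22 (SE 0.0557). RPL36 had means of 10.64 ± 0.039 and 10.84 ± 0.040 (SD, n = 3), and RPL10A, a protein of the L1 stalk, 9.76 ± 0.012 and 9.95 ± 0.044. The groups did not overlap in any of these genes, nor in 42.1% of all genes, and selection by the test favours such a gap. Their limma adjusted p-values ran from 0.0190 to 0.0346. These calls are near the threshold: RPL29, RPL36 and RPL10A each passed in 1 of the 6 fits that left out an array, the one without S22A-progerin replicate 3, and none of them nor RPL19 passed with arrays centred on their medians.

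RPL19 showed the tightest values and also a disagreement between probe sets. Its brighter probe set read 12.50, 12.49 and 12.49 in wt-progerin and 12.70, 12.69 and 12.72 in S22A-progerin, 0.21 higher (SE 0.0478, limma adjusted p = 0.0190). The second RPL19 probe set differed by 0.03 and did not pass (adjusted p = 0.778). A rise of RPL19 therefore rests on 1 of 2 probe sets. The median difference of the 35 large-subunit genes was 0.06. RPL28 was the lowest of them, at 7.81, 7.85 and 7.70 against 7.67, 7.53 and 7.63, without overlap. Its difference of -0.17 (SE 0.0657) did not pass (limma adjusted p = 0.102), though it did once the dimmest 50% of genes had been removed.

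RPL11, which with RPL5 forms the particle that binds MDM2 when ribosome assembly fails, read 9.65, 9.65 and 9.59 against 9.67, 9.64 and 9.77. The groups overlapped and the difference was 0.06 (95% interval -0.08 to 0.20). Of 14 measured genes that are mutated in Diamond-Blackfan anaemia, 1 rose (RPS19, 7.14%) and 0 fell, against 10.8% and 14.6% of all genes. Their median was 0.09, and 13 of the 14 differences were above 0 (92.9%), against 83.0% of the cytosolic set and 49.2% of all genes.

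Of the 8 measured paralogs, RPS27L was the 1 that rose (12.5%, against 10.8% of all genes). RPL36AL (0.22, limma adjusted p = 0.0519) did not overlap between groups. RPL22L1 (-0.02), RPL26L1 (0.00405), RPL7L1 (0.06), RPL39L (0.07), RPL3L (0.08) and RPL10L (-0.03) lay near 0, as did the partners RPL22 (0.02), RPL26 (0.05), RPL39 (0.06) and RPL10 (0.04). RPL10L is an intronless copy of RPL10, and the probes of such near-identical copies may share signal.

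Precision was enough to bound most of these genes. For 40 of the 53 cytosolic genes the 95% interval lay wholly within 0.32 of 0 on the log2 scale, against 46.1% of all genes, and for 52 of the 73 mitochondrial genes it did so as well. The largest cytosolic interval bound on the lower side was -0.33, for RPL28. Probe-set values ran from 6.46 for RPL22 to 13.31 for RPL10 (means of 6 arrays), readings that depend on the probes and do not rank the genes by abundance. In all, 46 of the 53 cytosolic genes have at least 1 pseudogene named after them in RefSeq (median 13), and copies with similar sequence may be read by the same probes. The counts were 34 for RPL29, 21 for RPL19, 20 for RPL36, 13 for RPL10A, 7 for RPS19 and 0 for RPS27L.

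Mitochondrial ribosomal protein genes were spread to both sides of 0. Of 73 measured, 11 rose (15.1%) and 1 fell, against 10.8% and 14.6% of all genes tested. At an unadjusted limma p under 0.05 there were 14 higher (19.2%) and 10 lower (13.7%), where 16.0% and 20.7% of all genes were. The median difference was -0.01, and it was 0.02 with the arrays quantile normalized again and -0.05 with each array centred on its median, so its sign was not settled. In those 2 fits the median over all genes was -0.00596 and -0.0376. Differences were above 0 in 35 of 73 genes. The middle 50% of the differences lay between -0.09 and 0.11, against 0.04 to 0.15 for the cytosolic genes and -0.15 to 0.12 for all genes. The plot of cumulative shares shows both sets as steeper curves than that of all genes.

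**Figure D2:**
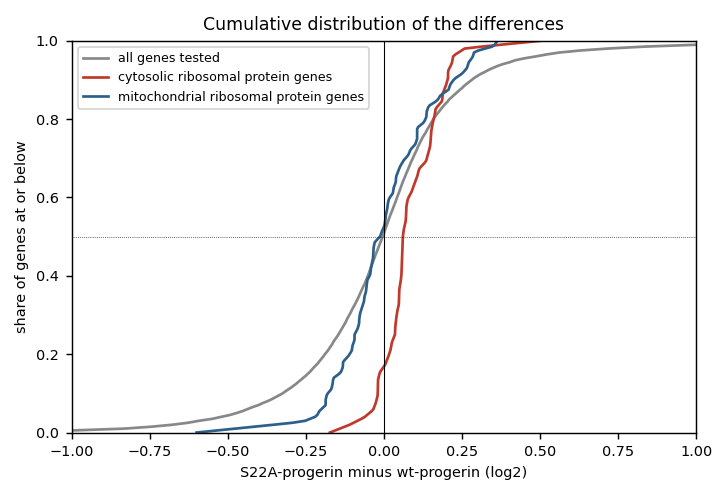
Share of genes (y axis) at or below a given S22A-progerin minus wt-progerin difference (log2, x axis) for all 14884 genes, the 53 cytosolic and the 73 mitochondrial ribosomal protein genes. The cytosolic curve crosses the middle at 0.06 and the mitochondrial curve at -0.01, and of both sets RPS27L and MRPL33 alone lie at or beyond 0.50 on either side.

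MRPL33, a small protein of the large subunit, was the 1 ribosomal protein gene that fell. It read 9.05, 9.07 and 9.10 in wt-progerin and 8.47, 8.47 and 8.48 in S22A-progerin. The groups lay far apart for their spread, with SDs of 0.0268 and 0.00625 (n = 3). Between groups MRPL33 differed by -0.60 (SE 0.0487, 95% interval -0.71 to -0.49), a 1.52-fold step at limma adjusted p = 0.000231. It was the only one of the 126 genes that passed with a fold of at least 1.5, and it passed in each of the 17 alternative fits (adjusted p at most 0.00286).

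MRPL49 and MRPL34 rose most among the mitochondrial genes, and both encode large-subunit proteins. MRPL49 read 10.37, 10.47 and 10.37 in wt-progerin and 10.78, 10.77 and 10.75 in S22A-progerin. All 3 S22A-progerin arrays were above the wt-progerin arrays, by 0.36 on average (SE 0.0547), 1.29-fold, at limma adjusted p = 0.00319. MRPL34 read 10.19, 10.30 and 10.26 against 10.54, 10.57 and 10.70. Its groups did not overlap, and it rose by 0.35 (SE 0.0656), 1.28-fold, at limma adjusted p = 0.00787. Both passed in all 17 alternative fits.

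MRPL39 and MRPL41 rose by a smaller step and passed whichever array was left out. MRPL39 went from 9.13 ± 0.063 to 9.42 ± 0.031 (SD, n = 3) and MRPL41, also described as a growth-inhibitory protein, from 7.68 ± 0.022 to 7.95 ± 0.055. MRPL10 (0.29), MRPL45 (0.27), MRPL28 (0.21) and MRPL53 (0.18) rose too. Of the small subunit, MRPS12 (0.25), MRPS18B (0.23) and MRPS2 (0.21) rose. MRPS12 and MRPS2 form part of the bacterial-type core of the small subunit. The groups did not overlap in any of the 12 mitochondrial genes that passed, nor in 42.1% of all genes. The test between the groups selected these 12, so the gap is no further support.

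Several of these calls hang on single arrays. MRPL53 and MRPS2 did not pass when any 1 of the 6 arrays was left out, MRPS18B passed in 2 of those fits, and MRPL10, MRPL28, MRPL45 and MRPS12 passed in 1 each. The one for MRPL10 and MRPL45 was that without S22A-progerin replicate 3, for MRPL28 that without S22A-progerin replicate 2 and for MRPS12 that without wt-progerin replicate 2. The second probe set of MRPS2 differed by 0.02 (adjusted p = 0.92). The 7 probe sets of MRPS18B all hold the same values. MRPS16 went the other way: its brighter probe set, at -0.13, did not pass, and its dimmer one fell by 0.36 on the log2 scale (adjusted p = 0.024 over all probe sets).

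**Figure D3:**
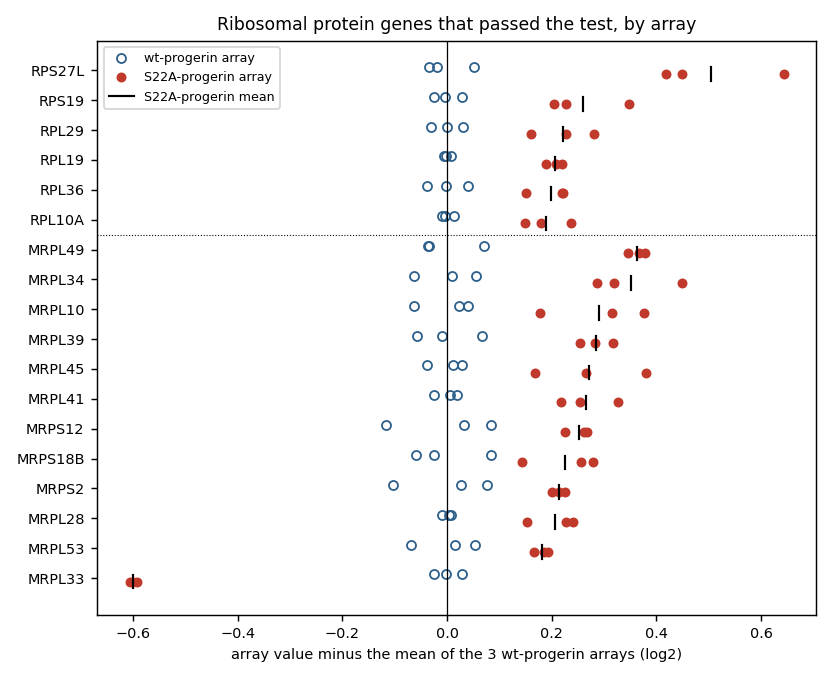
Array values minus the mean of the 3 wt-progerin arrays (log2, x axis) for the 18 ribosomal protein genes that passed (rows), cytosolic above the dotted line and mitochondrial below. Open blue circles are wt-progerin arrays, red dots S22A-progerin arrays and black ticks their mean. The groups are apart in all 18 genes, which the test between these groups selected. MRPL33 alone lies to the left at -0.60, and RPS27L has the widest S22A-progerin spread.

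Over all members, called or not, the mitochondrial set held more low values than the cytosolic set. The counts that follow include the genes that passed. Over all genes the groups did not overlap in 42.1%. In 15 of the 73 mitochondrial genes (20.5%) all S22A-progerin arrays were below all wt-progerin arrays, against 23.6% of all genes. In the cytosolic set it was 2 of 53 (3.77%). The reverse, all S22A-progerin arrays above, was seen in 16 mitochondrial genes (21.9%), 15 cytosolic genes (28.3%) and 18.5% of all genes. MRPL54 read 6.96, 7.29 and 7.06 against 6.75, 6.88 and 6.41, the second lowest difference at -0.43 (SE 0.138). Its adjusted p was 0.0624 and it is named here after its values were seen, as are the genes in the next sentence. MRPL1 (-0.26), MRPL16 (-0.22), MRPL47 (-0.21) and MRPS7 (-0.18) did not overlap and did not pass (limma adjusted p-values from 0.0637 to 0.112).

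S22A-progerin replicate 3 gave the lowest values of the mitochondrial set. The median over the 73 genes of an array's distance from the wt-progerin mean was 0.03, -0.00510 and -0.06 in S22A-progerin replicates 1, 2 and 3, while the wt-progerin arrays lay between -0.00503 and 0.00181. Over the 53 cytosolic genes the same medians were 0.09, 0.06 and 0.05, all above the wt-progerin arrays, which lay between -0.00833 and 0.00662. Without S22A-progerin replicate 3, 9 cytosolic genes rose, and 8 mitochondrial genes rose and 1 fell, where 10.4% of all genes rose and 13.8% fell.

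**Figure D4:**
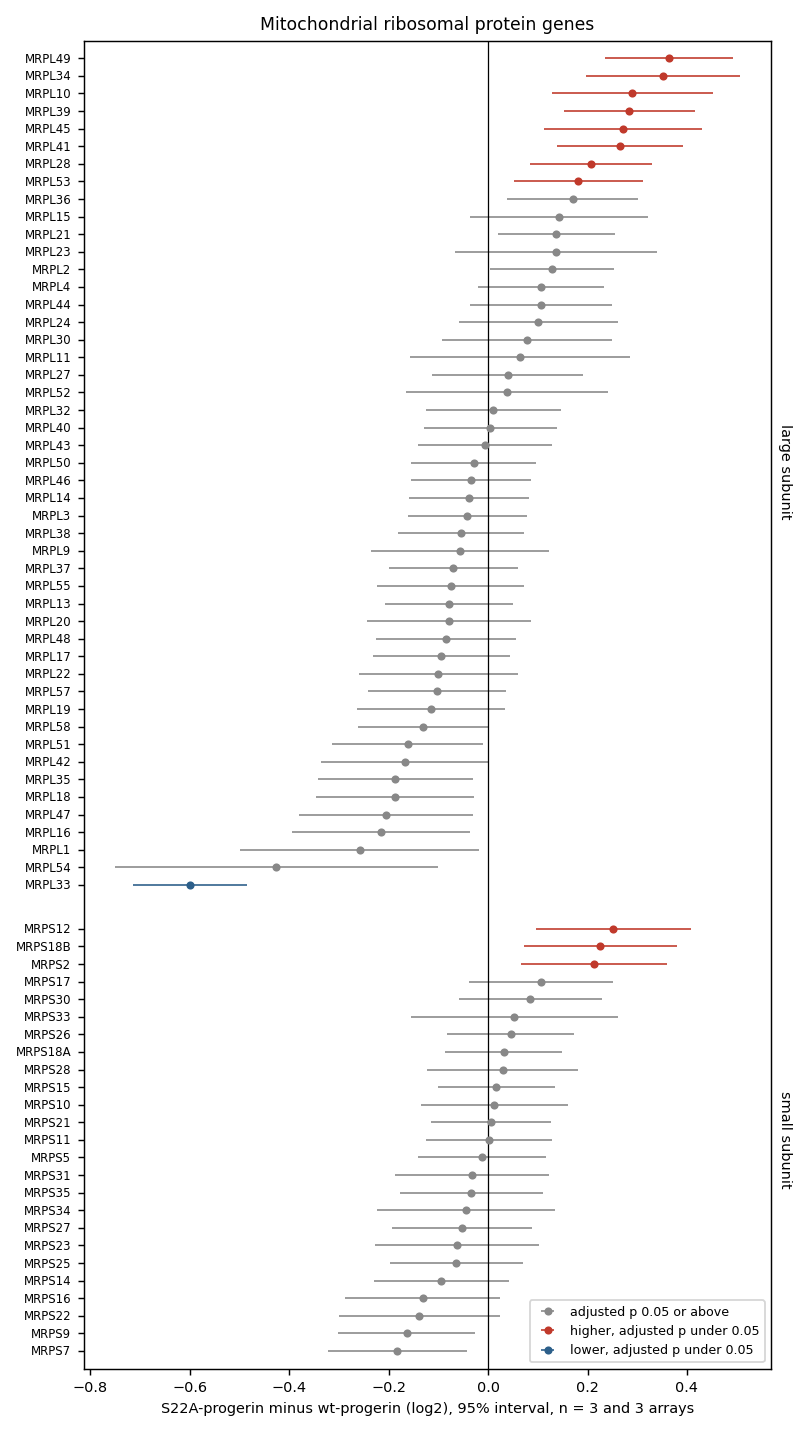
Difference between S22A-progerin and wt-progerin (log2, x axis) for each of the 73 measured mitochondrial ribosomal protein genes (rows), with 95% intervals from limma and n = 3 arrays per group. The 11 genes that rose (red) lie between 0.18 and 0.36, MRPL33 (blue) lies at -0.60, and the rest run continuously through 0.

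Genes of the same machines with other names were read in the same fit. FAU, which encodes the cytosolic small-subunit protein eS30 fused to a ubiquitin-like domain, was the 1 named gene of its list. It read 7.28, 7.33 and 7.28 in wt-progerin and 7.72, 7.64 and 7.57 in S22A-progerin, a rise of 0.35 (SE 0.0592), 1.27-fold, at limma adjusted p = 0.00537. The groups did not overlap, and the rise passed in the 17 alternative fits (adjusted p at most 0.026). The mitochondrial ribosomal proteins DAP3 (0.04), CHCHD1 (-0.07) and PTCD3 (-0.10) did not pass.

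FAU and MRPL49 are neighbours that start back to back on chromosome 11. The region is printed because the pair rose by nearly the same step, 0.35 and 0.36. It runs from 15 bases past the first base of FAU to 15 bases past the first base of MRPL49, at chr11:65122119-65122198 of GRCh38.p14, read on the plus strand, with the 48 bases between the starts in capitals.
FAU/MRPL49: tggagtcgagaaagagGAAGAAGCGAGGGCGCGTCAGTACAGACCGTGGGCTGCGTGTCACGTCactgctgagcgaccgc
FAU: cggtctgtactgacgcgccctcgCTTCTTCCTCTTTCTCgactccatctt
The second line is the start window of FAU on its own strand (minus, chr11:65122115-65122164), with its run of 16 pyrimidines in capitals. No such run lies at the annotated starts of MRPL49, of which the one nearest FAU is shown.

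Such back-to-back neighbours, with starts within 1000 bases on opposite strands, were measured for 16 members. In the pairs MRPL49 with FAU and MRPS2 with PIERCE1 (0.28, limma adjusted p = 0.0114) both genes rose. In the others the member did not pass. LRR1 (-0.43), beside RPS29 (0.03), EME1 (-0.56), beside MRPL27 (0.04), and SKA3 (-0.49), beside MRPL57 (-0.10), fell. VPS52 fell by 0.25 on the log2 scale beside RPS18 (0.21), and TMEM63B rose (0.22) beside MRPL14 (-0.04). In all 7 of the 16 partners passed (25.4% of all genes did). MRPL46 and MRPS11 are each other's partner, and both count among the 16. Other members, among them MRPS12 and MRPS18B, which rose, had neighbours without a named probe set.

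**Figure D5:**
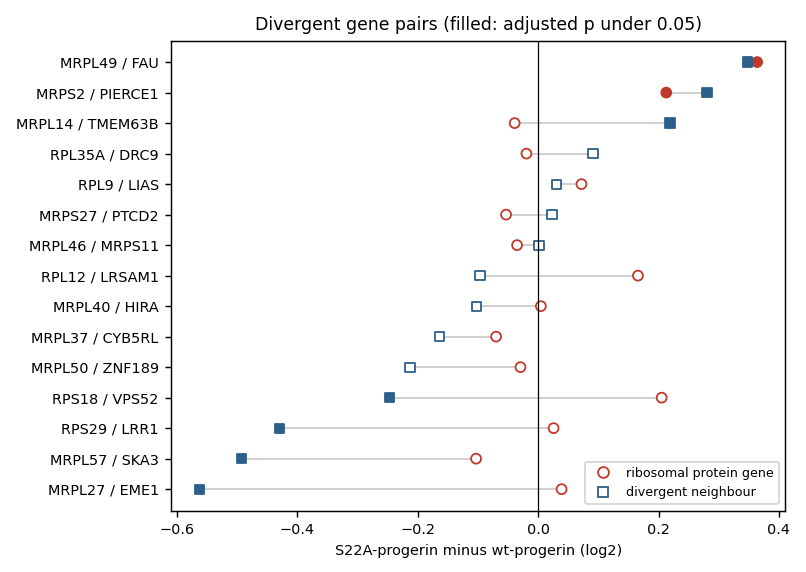
S22A-progerin minus wt-progerin difference (log2, x axis) of ribosomal protein genes (circles) and of the gene that starts on the opposite strand within 1000 bases (squares), 1 row per pair, with MRPL46 and MRPS11 as 1 row. Filled symbols passed at a limma adjusted p under 0.05: MRPL49 and FAU coincide at 0.36 and 0.35, while EME1, SKA3, LRR1 and VPS52 lie left of their unmoved or higher neighbours.

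In the 300-base promoter windows of RefSeq, 6 short motifs were searched on both strands. The ETS-type core CCGGAAG was present in 30 of 69 mitochondrial genes (43.5%), 24 of 70 cytosolic genes (34.3%) and 16.5% of all protein-coding genes. AAGATGGC, a YY1-type core that can share AAG with the former, was present in 30.4%, 10.0% and 4.66%. The other motifs were the NRF1 palindrome (13.0%, 11.4% and 9.67%), the GC box GGGCGG (60.9%, 57.1% and 64.3%), the E-box CACGTG (13.0%, 7.14% and 10.9%) and TATAAA (4.35%, 10.0% and 12.4%). The ETS-type core lies near the start of MRPL33, which fell, and of MRPS12, MRPL28, MRPL53 and RPS27L, which rose. It is in capitals in the windows of MRPL33 and MRPS12.
MRPL33: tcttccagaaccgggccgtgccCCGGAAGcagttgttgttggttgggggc
MRPS12: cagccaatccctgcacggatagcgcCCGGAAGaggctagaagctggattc
They lie at chr2:27771689-27771738 (plus) and chr19:38930914-38930963 (plus). Measured mitochondrial genes with the core had a median of -0.04 (n = 29, of which 3 rose and 1 fell) and those without it -0.02 (n = 36, of which 7 rose). Of all genes tested on the arrays 10.8% rose and 14.6% fell. The presence of these letters does not show that a factor binds.

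Other mRNAs of the TOP class did not share a direction. Of 9 measured TOP-class mRNAs outside the ribosome, EEF1G (0.23), of the elongation factor complex, and EIF4B (0.19), an initiation factor, rose. Each rise rests on the brighter of 2 probe sets: with the dimmer one in its place EEF1G was at 0.04 and EIF4B at -0.086, and neither passed. HNRNPA1, a splicing regulator, fell from 9.16 ± 0.0048 to 8.67 ± 0.061 (SD, n = 3), by 0.49 on the log2 scale (SE 0.0542, limma adjusted p = 0.000846). The elongation factors EEF2 (0.02) and EEF1A1 (-0.07) did not pass. Of the list 2 rose (22.2%) and 1 fell (11.1%), against 10.8% and 14.6% of all genes, and its median was -0.06.

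Among 12 measured factors of mitochondrial translation and its control, 1 rose and 1 fell (8.33% each), against 10.8% and 14.6% of all genes. Their median was -0.01. OXA1L, which inserts new proteins into the inner membrane, rose (0.19, SE 0.0512) and MTERF3 fell (-0.28, SE 0.0656). Of 19 measured assembly factors of the mitochondrial ribosome 0 rose and 2 fell (10.5%), against 10.8% and 14.6% of all genes. Their median was -0.08. TRMT61B, which methylates mitochondrial RNA, read 9.09, 9.01 and 9.05 in wt-progerin and 8.41, 8.37 and 8.29 in S22A-progerin. Its fall of 0.70 on the log2 scale (SE 0.0575, limma adjusted p = 0.000246) was larger than that of MRPL33. RBFA, a maturation factor of the small subunit, fell by 0.27 on the log2 scale (SE 0.0569), and ERAL1 (-0.17), a chaperone of the small-subunit rRNA, was at adjusted p = 0.054.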

How the data were processed

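Expression was measured on 6 Affymetrix whole-transcript arrays, 3 per group. Per the submitters' processing notes, the authors used RMA and the Affymetrix Expression Console, and deposited log2 values. Versions and genome build were not given in the sources used here. RMA corrects background and equalises array distributions, so differences are relative to the other genes. No detection call was used. A low reading may be background, which shrinks its fold, and precision is limited by the number of arrays.

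Of 53617 probe sets, 16098 had 1 gene symbol in the platform annotation, 0 had several and 37519 were not named here. Entrez identifiers were checked against RefSeq (GRCh38.p14), which changed 0 symbols. For 779 of 14884 genes with several probe sets the one with the highest mean was used. All genes were fitted together by lmFit and eBayes of limma 3.58.1 under R 4.3.3, without covariates or a filter, two-sided, with Benjamini-Hochberg adjustment over all genes and calls at 0.05. The fit was tested on simulated data. RefSeq promoter windows, of 250 bases before and 50 after a start, were matched by symbol to 48 of 53 cytosolic and 65 of 73 mitochondrial genes.

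Named genes were LMNA, RPS19, RPL19 and RPL10A; up to 6 rises and 6 falls in each subunit; the brightest and dimmest of each; paralogs and partners; RPL5 and RPL11; and up to 4 genes of each related list with the smallest p. The back-to-back neighbours and pseudogenes were added after seeing values. The members and lists were chosen with earlier results of these data known. Alternatives were 2 scalings, a filter on dim genes, 2 treatments of several probe sets, the replicate number as a block, array weights, 2 variance priors, a threshold of 0.01 and each array left out.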

Additional observations from a re-analysis of the deposited data

How the results depend on the processing

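RPS27L, MRPL49, MRPL34 and MRPL33 passed under all 17 alternatives, as 4 of the 18 called members, and 6 of 18 passed whichever array was left out. The count of 6 cytosolic rises became 2 with median centring, 11 with a trended prior (robust or not) and 1 at an adjusted p under 0.01. With the dimmer 50% of genes left out 11 cytosolic genes passed, 10 higher and 1 lower. The 12 mitochondrial calls became 23 with the dimmer 50% left out (9 lower) and 23 with either trended prior (10 lower). All genes moved as well: 18.4% were called higher and 31.8% lower without the dimmer 50%, where 119 of the 126 members were tested, and 12.4% and 17.8% with the trended prior. At 0.01 there were 3 mitochondrial calls, 2 of them higher. Median centring gave 6 higher and 3 lower, and the lowest-mean probe set 2 lower. Of all genes 5.72% were called higher and 8.24% lower at 0.01, and 8.87% and 16.5% with median centring. The 8 related genes called became 13 without the dimmer 50%, 13 with the trended prior and 3 at 0.01. With an array left out, 1 to 9 cytosolic genes were called, all higher, and 5 to 9 mitochondrial genes, 4 to 8 higher and 1 to 4 lower, while 4 to 8 related genes were called. In those fits 7.57% to 10.4% of all genes were called higher and 10.2% to 13.8% lower, against 10.8% and 14.6% with all arrays. The cytosolic median difference then ran from 0.053 to 0.081 and the mitochondrial one from -0.029 to 0.010. Without wt-progerin replicate 1, 2 or 3 the cytosolic rises were 1, 1 and 2. The cytosolic median was 0.092 after repeated quantile normalization and 0.027 after median centring, where the mitochondrial median was 0.016 and -0.046. The median over all genes was then -0.00596 and -0.0376. EIF4B was at -0.086 with its lowest-mean probe set.

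Same-numbered arrays did not deviate together (correlations of -0.02, -0.05 and -0.00558). Arrays of different number had correlations of -0.0263 to 0.0491. With 3 arrays per group this gave no sign of pairing by number but cannot exclude it. With the replicate block as a fixed term 2 cytosolic genes were called, both higher, 6 mitochondrial (4 higher, 2 lower) and 5 related genes. In that fit 8.63% of all genes were called higher and 11.5% lower. With the block as a random term, 15 of the 18 members passed, and 10.1% of all genes were called higher and 13.7% lower. Of 897 values of 53 single genes under the alternatives, 132 lost a call, 30 gained one and 1 turned.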

Other observations

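Of the pseudogenes of ribosomal proteins, which were left out of both sets, 28 were named on the array. Of these 3 rose (10.7%, against 10.8% of all genes) and 0 fell (14.6% of all genes) in limma's fit, at a median difference of 0.06, and 20 differences were above 0. At an unadjusted p under 0.05, 7 of the 28 were higher and 1 lower, against 16.0% and 20.7% of all genes. RPL23AP82 and RPL23AP87, both among the 7, hold the same values on every array. Of the 28, 15 lay in the lowest tertile of all genes by mean level. RPSAP52, a transcribed pseudogene, rose from a mean of 6.02 to 6.72, by 0.70 (SE 0.122, limma adjusted p = 0.00615). RPL13AP20, a copy of RPL13A, rose by 0.26 (adjusted p = 0.0228), and RPL23AP7 rose by 0.41 (adjusted p = 0.0259). The lower one at an unadjusted p was RPL23AP32, at -0.49 (adjusted p = 0.0741). RPL29P2 was at 0.19 (adjusted p = 0.0603), beside 0.22 for RPL29, and RPL19P12 at -0.01 beside 0.21 for RPL19. These genes were chosen after their values were seen.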
